A study of Mus musculus with 36 samples.

Results

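Eicosanoid genes were described in mouse microglia and astrocytes grown in culture, in which poly(A) RNA had been sequenced after 4 h of treatment. The genes were 9 chosen by symbol, Ptgs1, Ptgs2, Ptges, Hpgds, Hpgd, Ptger4, Alox5, Alox5ap and Ltc4s. Earlier results of these data were known at the choice, so the pass counts of these 9 beside the shares of all genes are a description. All 9 were listed among the 15385 genes of the microglial table and 7 among the 14551 genes of the astrocyte table, out of 16690 distinct symbols in both. Alox5 and Ptger4 had no row in the astrocyte table.

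The 36 libraries came from C57BL/6 pups of 2 to 4 days, whose brains were pooled and grown as mixed glia for 12 days. Microglia were then taken by CD11b selection, and astrocytes by a further selection from the cells that remained. The 24 microglial libraries covered 6 treatments with 4 libraries each, namely the vehicle DMSO, the RIPK1 kinase inhibitor Nec-1s (N), TNF plus 5z-7, which blocks the kinase TAK1 (T/5z), TNF plus a Smac mimetic and zVAD, which blocks caspases (T/S/Z), and either mixture with the inhibitor added (called T/5z/N or T/S/Z/N). The 12 astrocyte libraries covered DMSO, Nec-1s, T/S/Z and T/S/Z/N with 3 libraries each. No group received TNF, 5z-7, the Smac mimetic or zVAD alone, so every comparison concerns the whole combination. In microglia T/5z is used to drive RIPK1-dependent apoptosis and T/S/Z necroptosis. Nec-1s was added to block the kinase activity of RIPK1, and no other RIPK1 inhibitor or knockdown is among these libraries. The paper reports that both mixtures killed microglia and that Nec-1s lessened this death. The part of cell death in the differences with Nec-1s was not tested.

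Eicosanoids are short-lived lipid signals made from arachidonic acid, which phospholipases cut from membranes. The cyclooxygenases Ptgs1 (COX-1) and Ptgs2 (COX-2) turn it into prostaglandin H, from which terminal synthases such as Ptges make prostaglandin E2 and Hpgds makes prostaglandin D2. Hpgd breaks prostaglandins down, and Ptger4 is a receptor (EP4) for prostaglandin E2. In the other branch, Alox5 with its helper protein Alox5ap makes leukotriene A4, and Ltc4s joins it to glutathione. In the brain, Ptgs1 and Hpgds are known from resting microglia, whereas Ptgs2 and Ptges are known as inflammation-induced genes.

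Promoter windows are given for the 4 genes whose mean levels in microglia differ most between treatments on the deposited log2 scale, Ptges, Ptgs2, Hpgd and Ptger4. RefSeq (build GRCm38.p6) gave a window of 300 bases for 8 of the 9 genes, from 250 bases before the annotated start to 50 after it. Sequences are 5' to 3' on the gene's strand, and capitals mark matches to the motifs named after them.
Ptges, chr2:30903248-30903547, minus strand: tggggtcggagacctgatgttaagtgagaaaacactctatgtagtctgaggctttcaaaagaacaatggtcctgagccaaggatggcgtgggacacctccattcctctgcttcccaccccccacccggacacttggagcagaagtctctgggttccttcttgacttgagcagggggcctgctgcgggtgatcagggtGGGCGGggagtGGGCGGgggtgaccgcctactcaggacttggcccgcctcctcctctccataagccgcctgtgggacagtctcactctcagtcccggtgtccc
Ptgs2, chr1:150099781-150100080, plus strand: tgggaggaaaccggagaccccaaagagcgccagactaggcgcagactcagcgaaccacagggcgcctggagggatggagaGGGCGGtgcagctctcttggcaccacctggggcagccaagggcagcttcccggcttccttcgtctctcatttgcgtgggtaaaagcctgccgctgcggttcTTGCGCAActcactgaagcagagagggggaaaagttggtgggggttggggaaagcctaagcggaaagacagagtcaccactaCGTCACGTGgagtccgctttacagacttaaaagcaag
Hpgd, chr8:56294302-56294601, plus strand: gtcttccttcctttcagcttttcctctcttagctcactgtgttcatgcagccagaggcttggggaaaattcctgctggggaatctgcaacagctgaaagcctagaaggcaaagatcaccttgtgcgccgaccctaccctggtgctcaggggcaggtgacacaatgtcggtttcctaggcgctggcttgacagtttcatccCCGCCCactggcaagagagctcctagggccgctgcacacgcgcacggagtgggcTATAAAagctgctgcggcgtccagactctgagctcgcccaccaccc
Ptger4, chr15:5244138-5244437, minus strand: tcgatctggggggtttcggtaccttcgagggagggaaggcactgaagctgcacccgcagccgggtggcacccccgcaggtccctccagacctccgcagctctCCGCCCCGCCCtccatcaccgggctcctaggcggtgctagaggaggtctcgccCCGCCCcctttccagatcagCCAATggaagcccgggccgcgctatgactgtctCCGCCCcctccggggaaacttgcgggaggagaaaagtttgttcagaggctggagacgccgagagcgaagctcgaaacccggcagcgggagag
Positions are counted from 0 at the annotated start. The window of Ptges held the GC box GGGCGG at -53 to -48 and at -42 to -37. That of Ptgs2 held a GC box at -170 to -165, the C/EBP palindrome TTGCGCAA at -69 to -62, and after the start the cyclic AMP response half-site CGTCA at 13 to 17, which overlapped the E-box CACGTG at 16 to 21. Hpgd had a GC box on the other strand (CCGCCC, -50 to -45) and TATAAA at 4 to 9, and Ptger4 had CCGCCC 4 times and CCAAT at -75 to -71. The RefSeq start of Hpgd used here lies upstream of its start in the deposited annotation (chr8:56294585). Its TATAAA lies after the former and before the latter. Both strands were searched. Of 32851 promoter windows of this length, 35.7% held a GC box, 20.8% the half-site, 13.6% TATAAA, 37.4% CCAAT, 7.15% the E-box and 0.183% the C/EBP palindrome. The kappaB consensus (4.51% of windows) and the AP-1 motif TGANTCA (7.81%) matched none of these 4 windows. A match describes the letters of a window and not a site in use.

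Levels are given as deposited, as log2(FPKM + 1). FPKM counts fragments relative to exon length and to library size, and the authors had scaled the libraries to a common 75th percentile. The depth could be estimated from the steps between low values as 20.8 to 28.8 M for microglial replicate 4 (6 libraries) and 39.6 to 42.2 M for the astrocytes, and is unknown for the other microglial libraries. There each gene had been adjusted so that its mean over the treatments equalled that in replicate 4, to within 6.67e-05, by a step not given in the sources used here. The 12 microglial markers were all expressed in the microglial libraries, where they summed to between 10510.5 and 13374 FPKM, while the 10 astrocyte markers summed to between 4.88 and 22.8. In the astrocyte libraries the astrocyte markers summed to between 2936 and 3430 FPKM and the microglial markers to between 64.8 and 116. Of 6 mast cell markers, mast cells being another rich source of these enzymes, only Kit was listed in the microglial table, at no more than 0.271 FPKM.

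A gene passed when its fold change exceeded 1.5 with an adjusted p under 0.05 in limma, fitted across all tested genes with the replicate number as a block. Of the 9 genes, 8 entered the microglial tests. Alox5, the lipoxygenase itself, did not reach the minimum for testing and lay between 0.06 and 0.39 on the log2 scale in all 24 microglial libraries. In the astrocyte tests 5 of the 7 listed genes entered, since Hpgds and Ltc4s were mostly under the minimum. In these bulk samples fewer cells of a type and less RNA per cell cannot be told apart. With the replicate block, the p-values measure the spread of the differences within replicate numbers between these libraries, which the study counts as biological replicates. In microglia this is the spread left after the adjustment of the replicate means given above.

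Microglia exposed to T/5z or T/S/Z showed a far higher level of Ptges and a lower level of Hpgd than with DMSO, so that the synthase rose while the degrading enzyme fell. Ptgs2 rose as well, more with T/S/Z, while Ptgs1 and Hpgds fell with both. With T/5z, 3 genes were higher and 3 lower of 8 tested, where 24.4% of all tested genes passed, 11.1% higher and 13.3% lower. With T/S/Z, 2 were higher and 3 lower, where 29.6% of all tested genes passed, 12.2% higher and 17.5% lower. The comparisons of the treatments with DMSO share its 4 libraries. The plot of microglial levels shows each library.

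**Figure D1:**
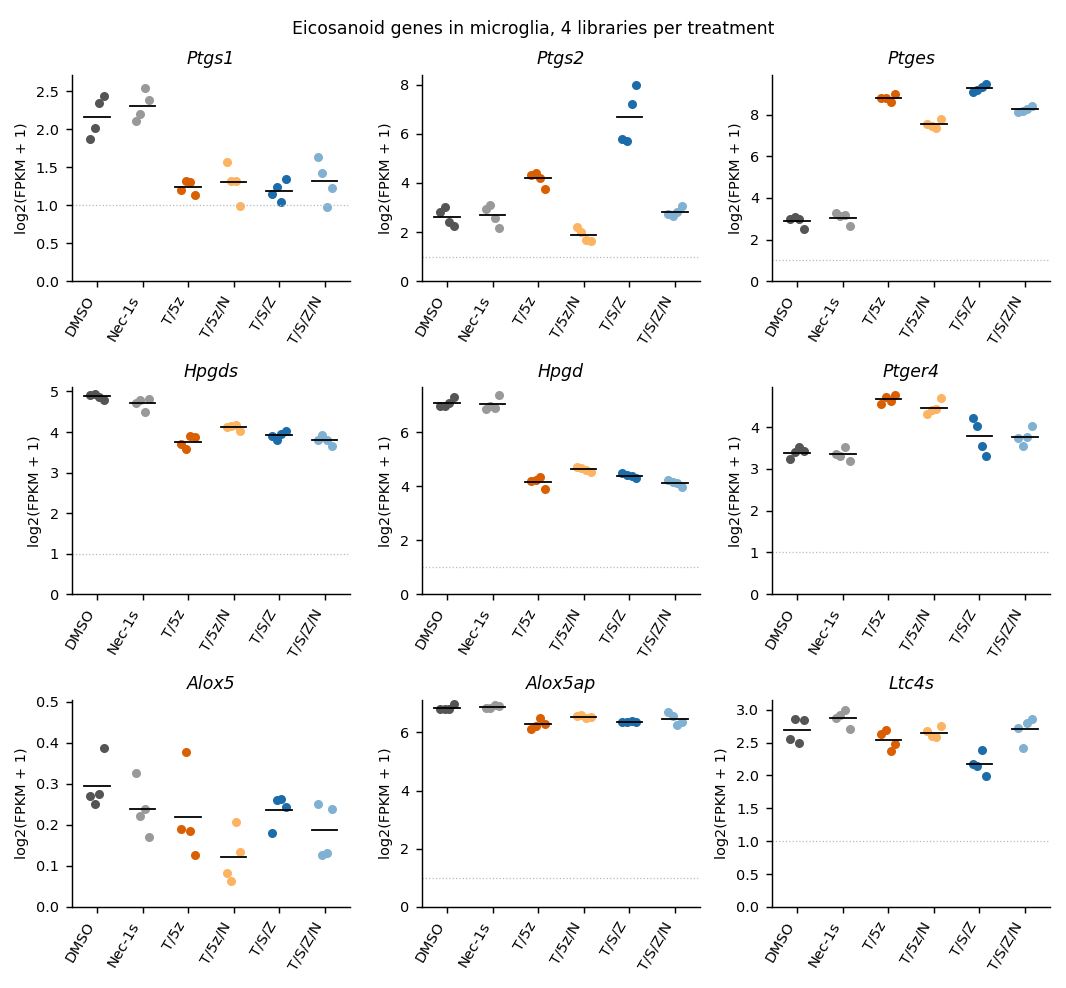
Levels of the 9 genes in microglia as log2(FPKM + 1), with a point per library, a bar at the mean of 4 libraries and a dotted line at the minimum of 1 for testing. The vertical scales differ between panels and start at 0. Ptges lies above 8.6 in all T/5z and T/S/Z libraries and below 3.3 with DMSO or Nec-1s, and Alox5 stays under 0.4 throughout.

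Ptges, the inducible microsomal prostaglandin E synthase, read 2.97, 3.07, 3.01 and 2.48 with DMSO in replicates 1 to 4 on the log2 scale. With T/5z it read 8.81, 8.81, 8.62 and 8.98, and with T/S/Z 9.09, 9.20, 9.33 and 9.48. No stimulated library came near a DMSO library. In linear units the mean FPKM was 6.47 ± 1.27 (SD, n = 4) with DMSO, 448 ± 46.2 with T/5z and 621 ± 72.8 under T/S/Z. Ptges thus rose by a log2 change of 5.92 with T/5z (SE 0.14, limma adjusted p = 4.42e-07) and 6.39 with T/S/Z (SE 0.14, limma adjusted p = 6.02e-08). It ranked 4 from the top of 10524 tested genes with T/5z and 6 under T/S/Z.

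Ptgs2, the inducible cyclooxygenase, read 2.83, 3.03, 2.40 and 2.25 with DMSO. With T/5z it read 4.34, 4.40, 4.22 and 3.77, and with T/S/Z 5.78, 5.71, 7.21 and 7.99. All stimulated libraries were above all DMSO libraries, and replicates 3 and 4 with T/S/Z stood well above replicates 1 and 2. Its rise was 1.55 on the log2 scale with T/5z (SE 0.08, limma adjusted p = 6.15e-06) and 4.05 with T/S/Z (SE 0.47, limma adjusted p = 0.000138). Its log2 change under T/S/Z lay between 3.48 and 4.50 when a replicate was left out, and the call was kept each time. Set directly against each other, T/S/Z exceeded T/5z by 2.49 on the log2 scale (SE 0.45, limma adjusted p = 0.00454), in 4 of 4 replicates. In that comparison, 2 of the 8 genes passed, Ptgs2 upward and Ptger4 downward, where 9.83% of all tested genes passed, 5.42% higher and 4.42% lower. Without moderated variance 0 of the 8 passed there, with limma adjusted p = 0.0979 for both genes.

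Ptgs1, the constitutive cyclooxygenase, was low and read 1.87, 2.01, 2.34 and 2.44 with DMSO. It read 1.19, 1.32, 1.31 and 1.13 with T/5z and 1.15, 1.24, 1.04 and 1.34 with T/S/Z. The DMSO libraries did not overlap with either stimulus. Its log2 changes were -0.93 (SE 0.12, limma adjusted p = 0.000507) with T/5z and -0.98 (SE 0.11, limma adjusted p = 0.000143) with T/S/Z. With 5 instead of 1 added before the log, these became -0.42 and -0.44 and no longer exceeded the fold minimum.

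Hpgds, the hematopoietic prostaglandin D synthase, read 4.92, 4.93, 4.87 and 4.80 with DMSO. It read 3.70, 3.59, 3.89 and 3.87 with T/5z and 3.91, 3.81, 3.94 and 4.03 with T/S/Z, below every DMSO library. For Hpgds the log2 changes were -1.12 (SE 0.08, limma adjusted p = 2.64e-05) with T/5z and -0.96 (SE 0.07, limma adjusted p = 1.26e-05) with T/S/Z. The mean level was 28.5 ± 1.28 FPKM with DMSO, 12.6 ± 1.34 with T/5z and 14.2 ± 0.941 under T/S/Z (SD, n = 4).

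Hpgd, the 15-hydroxyprostaglandin dehydrogenase, was the most abundant of the 9 genes with DMSO and read 6.98, 6.98, 7.10 and 7.31 on the log2 scale. It read 4.21, 4.25, 4.33 and 3.91 with T/5z and 4.48, 4.44, 4.38 and 4.31 with T/S/Z, with a wide gap to the DMSO libraries. The mean fell from 136 ± 15.0 FPKM to 17.2 ± 2.23 with T/5z and 20.1 ± 1.08 under T/S/Z (SD, n = 4). The log2 change was -2.92 (SE 0.11, limma adjusted p = 1.99e-06) with T/5z, rank 10 from the bottom of 10524 genes. Under T/S/Z it was -2.69 (SE 0.08, limma adjusted p = 2.54e-07), rank 11 from the bottom. Ptges was at 4.75% of the Hpgd level with DMSO and at 3083% of it with T/S/Z, as the ratio of their mean FPKM.

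Ptger4, the receptor EP4, separated the stimuli. It read 3.23, 3.40, 3.51 and 3.42 with DMSO and 4.55, 4.71, 4.61 and 4.77 with T/5z, with no overlap. With T/S/Z it read 4.23, 4.02, 3.55 and 3.31, so that replicate 4 lay within the DMSO range and replicate 3 just above it. This amounted to a log2 change of 1.27 (SE 0.06, limma adjusted p = 4.31e-06) with T/5z and 0.39 (SE 0.17, limma adjusted p = 0.0739) with T/S/Z. T/S/Z lay 0.88 below T/5z on the log2 scale (change -0.88, SE 0.17, limma adjusted p = 0.00541), lower in 4 of 4 replicates.

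The changes of the helper and final enzyme of the leukotriene branch lay near the fold minimum or under it and did not pass. Alox5ap, the 5-lipoxygenase activating protein, was abundant at 114 ± 6.73 FPKM with DMSO, 76.7 ± 8.92 with T/5z and 81.2 ± 1.10 under T/S/Z (SD, n = 4). On the log2 scale its DMSO libraries lay between 6.79 and 6.96 and its stimulated libraries between 6.12 and 6.50, without overlap. The log2 changes of -0.57 (T/5z) and -0.48 (T/S/Z) had limma adjusted p = 0.00036 and 0.000112. They passed with quantile normalization, at -0.78 and -0.77, and the T/5z change also without replicate 3, at -0.65. Ltc4s, the leukotriene C4 synthase, read 2.55, 2.86, 2.50 and 2.84 with DMSO, 2.63, 2.70, 2.37 and 2.47 with T/5z and 2.17, 2.14, 2.38 and 2.00 with T/S/Z. The T/S/Z libraries were below the DMSO libraries and the T/5z libraries overlapped with them. The log2 change of Ltc4s was -0.14 (SE 0.08, limma adjusted p = 0.171) with T/5z and -0.51 (SE 0.12, limma adjusted p = 0.00613) with T/S/Z, where it passed without replicate 3, at -0.64. Alox5, the enzyme that acts before Ltc4s, stayed near 0 as given above.

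Nec-1s lowered Ptgs2 after both stimuli, to below DMSO after T/5z and without a detected difference from DMSO after T/S/Z, but took back only part of the rise in Ptges. Ptges and Ptgs2, both lower, were the 2 of 8 tested genes that passed after either stimulus. Of all tested genes 7.16% passed with T/5z/N against T/5z (2.64% higher, 4.52% lower) and 12.1% with T/S/Z/N against T/S/Z (5.35% higher, 6.72% lower). Given alone, Nec-1s moved none of the 8 genes past the threshold, where 0% of all tested genes passed in limma and 892 had an unadjusted p under 0.05. The 95% intervals of these 8 log2 changes lay between -0.31 and 0.41.

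Ptgs2 read 2.23, 1.99, 1.69 and 1.64 with T/5z/N and 2.75, 2.65, 2.81 and 3.07 with T/S/Z/N. These values were below all libraries of the matching stimulus. Ptgs2 changed by -2.29 on the log2 scale after T/5z (SE 0.08, limma adjusted p = 7.68e-07), rank 7 from the bottom of 10524 genes, and -3.86 after T/S/Z (SE 0.30, limma adjusted p = 4.87e-05), rank 15 from the bottom. Against DMSO, T/5z/N was lower by a log2 change of -0.74 (SE 0.09, limma adjusted p = 0.000294), below its own DMSO library in 4 of 4 replicates, and T/S/Z/N gave 0.19 with a 95% interval of -0.23 to 0.61 (limma adjusted p = 0.414). With 5 added before the log the log2 change of T/5z/N against DMSO was -0.41 and no longer exceeded the fold minimum. Nec-1s took back 149 ± 18.0% of the log2 rise after T/5z and 98.6 ± 12.7% following T/S/Z (SD over 4 replicates).

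Ptges read 7.57, 7.44, 7.37 and 7.80 with T/5z/N and 8.11, 8.17, 8.29 and 8.44 with T/S/Z/N. These libraries lay between those of DMSO and of the stimulus, overlapping with neither. The log2 change with Nec-1s was -1.26 after T/5z (SE 0.04, limma adjusted p = 8.67e-07) and -1.02 after T/S/Z (SE 0.05, limma adjusted p = 7.63e-06). That took back 21.4 ± 2.41% and 16.0 ± 0.839% of the log2 rise (SD over 4 replicates). On the linear scale the mean went from 448 to 187 ± 25.6 FPKM after T/5z and from 621 to 305 ± 30.7 FPKM after T/S/Z.

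The falls of Hpgd, Hpgds and Ptgs1 were still present with Nec-1s. With T/5z/N against DMSO 6 of 8 genes passed, 2 higher and 4 lower, where 12.8% of all tested genes passed (6.16% higher, 6.69% lower). With T/S/Z/N against DMSO 4 of 8 passed, 1 higher and 3 lower, where 14.1% of all tested genes passed (6.2% higher, 7.87% lower). Hpgd read 4.71, 4.67, 4.60 and 4.55 with T/5z/N and 4.22, 4.14, 4.13 and 3.99 with T/S/Z/N. Nec-1s thus left it higher in 4 of 4 replicates after T/5z (log2 change 0.46, SE 0.06, limma adjusted p = 0.000604) and lower in 4 of 4 after T/S/Z (log2 change -0.28, SE 0.04, limma adjusted p = 0.00106), both within the fold minimum. Against DMSO its log2 change was -2.46 (SE 0.08) with T/5z/N and -2.97 (SE 0.09) with T/S/Z/N. Hpgds read 4.13, 4.14, 4.17 and 4.01 with T/5z/N and 3.79, 3.91, 3.80 and 3.66 with T/S/Z/N, all below the DMSO libraries. Ptgs1 lay between 0.97 and 1.63 in the 8 libraries that had a stimulus and Nec-1s, also below DMSO. Its calls against DMSO were each kept under 8 of 11 alternatives. They were lost with 5 added before the log (-0.39 in both), with a fold minimum of 2 and without moderated variance (limma adjusted p = 0.101 with T/5z/N and 0.107 with T/S/Z/N). Ptger4 read 4.31, 4.41, 4.43 and 4.69 with T/5z/N, all above DMSO, and 3.74, 3.55, 3.76 and 4.02 with T/S/Z/N.

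Ltc4s read 2.73, 2.42, 2.79 and 2.86 with T/S/Z/N, above all T/S/Z libraries, with a log2 change of 0.53 (SE 0.10, limma adjusted p = 0.00248) that did not exceed the fold minimum, except without replicate 2, at 0.61. Alox5ap lay between 6.48 and 6.59 with T/5z/N and between 6.25 and 6.69 with T/S/Z/N. Its log2 change with Nec-1s was 0.26 (SE 0.07, limma adjusted p = 0.017) after T/5z, within the fold minimum, and 0.11 (SE 0.08, limma adjusted p = 0.263) after T/S/Z.

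An interaction term asked if Nec-1s acted differently after the 2 stimuli, and 2 of the 8 genes passed, both higher (6.47% of all tested genes, 3.77% higher and 2.7% lower). For Hpgd the effect after T/5z minus that after T/S/Z was 0.74 on the log2 scale (SE 0.08, limma adjusted p = 1.2e-05), in 4 of 4 replicates. For Ptgs2 it was 1.56 (SE 0.53, limma adjusted p = 0.0456). The Ptgs2 call was lost without any 1 of the 4 replicates, with values between 1.15 and 1.86, and over all alternatives its adjusted p lay between 0.0178 and 0.154. For Ptges the difference of -0.24 did not pass (95% interval -0.44 to -0.03, limma adjusted p = 0.0813).

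**Figure D2:**
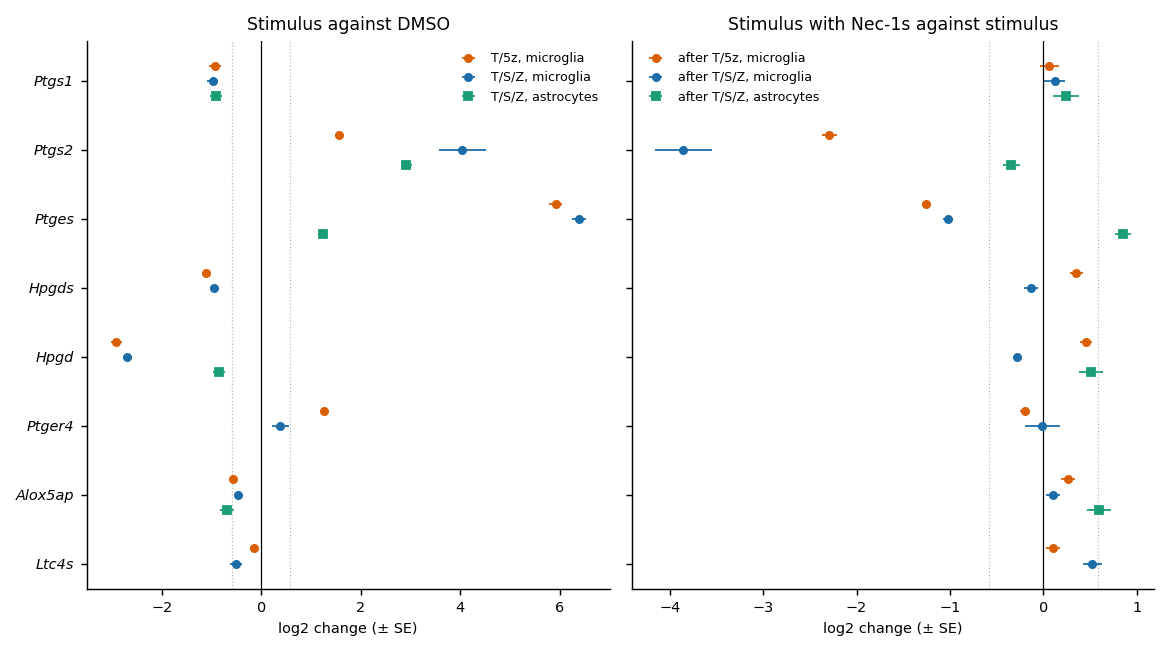
Log2 changes with their SE for the stimulus against DMSO (left) and the stimulus with Nec-1s against the stimulus (right), in microglia (circles) and astrocytes (squares). Dotted lines mark a fold of 1.5 in either direction, and genes that were not tested in astrocytes have no square. Ptges rose in both cell types, and with Nec-1s after T/S/Z its change was -1.02 in microglia and 0.85 in astrocytes.

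In astrocytes the same stimulus, T/S/Z, raised Ptgs2 more than Ptges, and Nec-1s left Ptges higher than T/S/Z alone. All 5 tested genes passed with T/S/Z against DMSO, 2 higher and 3 lower, where 15.4% of all tested genes passed (6.39% higher, 8.99% lower). The median log2 change of all tested genes in this comparison was -0.11, and centring each library on its median changed no call of the 5. Without replicate 1 the calls of Ptgs1 and Alox5ap were lost and 3 of 5 remained (limma adjusted p = 0.0507 and 0.0967), and without moderated variance 0 of 5 passed. With T/S/Z/N against T/S/Z 2 of 5 passed, both higher (3.1% of all tested genes, 1.51% higher and 1.59% lower). Against DMSO, 3 of 5 passed with T/S/Z/N, 2 higher and 1 lower (9.08% of all tested genes, 4.36% higher and 4.72% lower). Nec-1s alone moved none of the 5 past the threshold, where 0.0144% of all tested genes passed in limma and 790 had an unadjusted p under 0.05.

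Ptges read 2.87, 2.75 and 2.87 with DMSO, 4.18, 4.08 and 3.94 with T/S/Z and 4.94, 4.93 and 4.88 with T/S/Z/N in astrocytes. The 3 groups did not overlap, with T/S/Z/N highest. The log2 change was 1.24 with T/S/Z against DMSO (SE 0.09, limma adjusted p = 9.62e-05) and 0.85 with T/S/Z/N against T/S/Z (SE 0.09, limma adjusted p = 0.00249), higher in 3 of 3 replicates. The latter call was kept under 9 of 11 alternatives and lost with a fold minimum of 2 and without moderated variance (limma adjusted p = 0.199). In FPKM the means were 6.11 ± 0.339, 15.8 ± 1.41 and 29.2 ± 0.702 (SD, n = 3). In the astrocyte annotation the locus of Ptges was longer, chr2:30889471-30929863, and contained the pseudogene Gm13400 on the same strand, so its reads may include some of that locus.

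Ptgs2 read 2.78, 3.34 and 3.18 with DMSO, 5.93, 5.92 and 6.22 with T/S/Z and 5.65, 5.65 and 5.74 with T/S/Z/N. Both stimulated groups stood clear of DMSO and the T/S/Z/N libraries lay just below the T/S/Z libraries. The log2 change was 2.92 with T/S/Z (SE 0.12, limma adjusted p = 5.11e-06) and 2.58 with T/S/Z/N against DMSO (SE 0.11, limma adjusted p = 6.43e-05). Nec-1s gave -0.34 against T/S/Z alone (SE 0.09, 95% interval -0.54 to -0.14, limma adjusted p = 0.0568). It took back 11.7 ± 3.68% of the log2 rise (SD over 3 replicates).

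**Figure D3:**
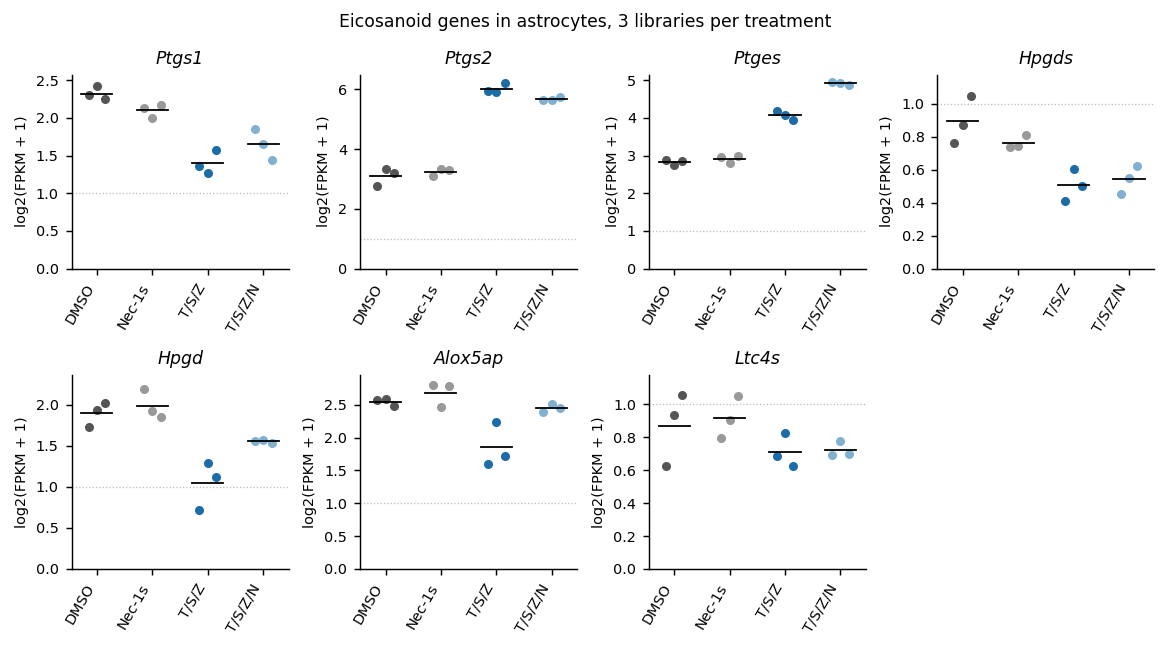
Levels of the 7 listed genes in astrocytes as log2(FPKM + 1), with a point per library, a bar at the mean of 3 libraries and a dotted line at the minimum of 1 for testing. Vertical scales differ between panels and start at 0. Ptgs2 lies near 6 with T/S/Z and near 5.7 with T/S/Z/N, whereas Ptges is highest with T/S/Z/N.

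Ptgs1, Hpgd and Alox5ap were lower with T/S/Z in astrocytes. Ptgs1 read 2.30, 2.42 and 2.24 with DMSO, 1.36, 1.27 and 1.57 with T/S/Z and 1.85, 1.65 and 1.44 with T/S/Z/N, with log2 changes against DMSO of -0.92 (SE 0.12, limma adjusted p = 0.00138) and -0.67 (SE 0.11, limma adjusted p = 0.00718). The call with T/S/Z/N was kept under only 5 of 10 alternatives, with changes between -0.78 and -0.33 and limma adjusted p between 0.00278 and 0.143, and it was lost without replicate 2 (limma adjusted p = 0.0707). Both stimulated groups were below DMSO and overlapped with each other. Hpgd, low in this table, read 1.73, 1.93 and 2.03 with DMSO, 0.72, 1.29 and 1.12 with T/S/Z and 1.56, 1.57 and 1.53 with T/S/Z/N. Its log2 change was -0.85 with T/S/Z (SE 0.12, limma adjusted p = 0.00152), and Nec-1s gave 0.51 against T/S/Z alone (SE 0.13, limma adjusted p = 0.0578). Alox5ap read 2.57, 2.59 and 2.47 with DMSO, 1.59, 2.24 and 1.71 with T/S/Z and 2.39, 2.51 and 2.44 with T/S/Z/N, the T/S/Z libraries lying below the others. Its log2 changes were -0.69 with T/S/Z (SE 0.14, limma adjusted p = 0.00723) and 0.60 with T/S/Z/N against T/S/Z (SE 0.13, limma adjusted p = 0.0374). The latter call was kept under only 3 of 10 alternatives, with adjusted p between 0.0245 and 0.318. The T/S/Z calls of Ptgs1, Hpgd and Alox5ap against DMSO were kept under 6, 7 and 5 of 10 alternatives. Hpgds lay between 0.41 and 1.05 and Ltc4s between 0.62 and 1.06 in the 12 astrocyte libraries.

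The listed genes fell into groups by how their levels in the astrocyte table compared with the microglial table. These tables came, per the labels, from different sequencing providers and were normalized separately, so the levels are set side by side with no test. Their gene annotations differed too, and FPKM depends on exon length. Hpgds had 3476 exon bases in the microglial annotation and 6425 in the astrocyte one, Ltc4s 652 and 1014, and Hpgd 1683 in both. With DMSO, the astrocyte mean FPKM was 94.5% of the microglial one for Ptges, 113% for Ptgs1 and 144% for Ptgs2. It was 4.26% for Alox5ap, 3.04% for Hpgds, 2.01% for Hpgd and 15.4% for Ltc4s. For the 12 microglial markers this share lay between 0.349% and 43.0% with a median of 0.971%, under the shares of the latter 4 genes. Only P2ry12 (19.3%) and Tmem119 (43.0%), both low in microglia at 4.27 and 9.04 FPKM, had a share above that of Ltc4s. Under T/S/Z the share for Ptges was 2.54%, and with T/S/Z/N the share for Ptgs2 was 825%.

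Markers of other cells moved with these results. In the astrocyte libraries the sum of the 12 microglial markers was 110 FPKM with DMSO (range 104 to 113), 65.3 with T/S/Z (64.8 to 66.0) and 97.6 with T/S/Z/N (93.1 to 101). The sum of 6 fibroblast markers was 620 (612 to 626), 119 (112 to 125) and 491 (490 to 492) FPKM. The sum of the 10 astrocyte markers in T/S/Z was 90.8 ± 2.90% of its DMSO mean (SD, n = 3). Alox5ap stood at 55.4 ± 19.1% of its DMSO mean with T/S/Z and 92.1 ± 4.83% with T/S/Z/N, and the microglial marker sum at 59.2 ± 0.527% and 88.5 ± 3.60%. The endothelial list, with 2 of 5 markers listed, stood at 43.3% of its DMSO mean with T/S/Z and 90.9% with T/S/Z/N, and the oligodendrocyte lineage list (7 of 8 listed) at 68.4% and 65.2%. The neuronal list stood at 118% and 98.7%, the border macrophage list at 82.1% and 106%, and the mast cell list, of which Kit alone was listed, at 41.7% and 49.5%. Ptges moved up, at 259 ± 23.0% and 477 ± 11.5%. The part of these other cells in the astrocyte results was not tested. In the microglial libraries the astrocyte marker sum was 8.38 FPKM with DMSO, 18.3 with T/5z and 17.2 under T/S/Z, and with Nec-1s added 8.79 after T/5z and 5.64 following T/S/Z. The fibroblast marker sum there was 7.85 FPKM with DMSO, 17.0 with T/5z, 8.48 with T/5z/N, 6.76 under T/S/Z and 4.51 with T/S/Z/N. The endothelial sum (3 of 5 markers listed) was 6.43 FPKM with DMSO, 4.18 with T/5z, 3.34 with T/5z/N, 3.03 under T/S/Z and 3.26 with T/S/Z/N, so that like Hpgd, Hpgds and Ptgs1 it was lower than with DMSO after both stimuli, with or without Nec-1s. In the same order the border macrophage sum was 933, 798, 915, 879 and 996 FPKM, the oligodendrocyte lineage sum 31.4, 27.4, 28.7, 31.9 and 31.7, and the neuronal sum 0.974, 2.30, 0.996, 2.11 and 0.720. The part of these cells in the microglial results was not tested.

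**Figure D4:**
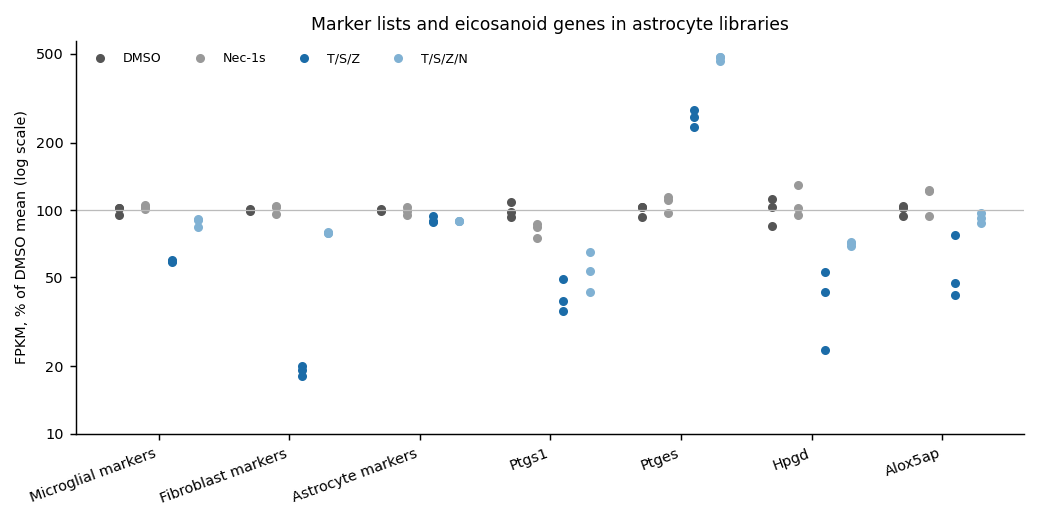
Summed FPKM of marker lists, and FPKM of Ptgs1, Ptges, Hpgd and Alox5ap, in the 12 astrocyte libraries as a percentage of the DMSO mean on a log axis, with a point per library. The microglial and fibroblast lists dip with T/S/Z and lie nearer to DMSO with T/S/Z/N, as do Hpgd and Alox5ap. Ptges rises with T/S/Z and again with T/S/Z/N.

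Other genes of the pathway were taken from a list of 54 symbols, also chosen with earlier results known. Of these, 32 were in the microglial table and 21 were tested there. With T/5z 3 rose and 4 fell, or 33.3% of those tested with a median log2 change of -0.12, and with T/S/Z 4 rose and 5 fell (42.9%, median -0.19), against 24.4% and 29.6% of all tested genes with medians of -0.06 and -0.08. Among those that release the substrate, Pla2g4a, the cytosolic phospholipase A2, read 3.10, 3.12, 3.35 and 2.87 with DMSO, 4.20, 4.19, 4.19 and 4.26 with T/5z and 5.01, 5.12, 4.94 and 5.23 with T/S/Z. The 3 groups did not overlap, and its log2 changes were 1.10 (SE 0.09, limma adjusted p = 4.68e-05) and 1.96 (SE 0.11, limma adjusted p = 3.89e-06). Nec-1s lowered it by a log2 change of -0.66 after T/5z and -0.97 following T/S/Z, both passing. The calls were kept under 10 and 11 of 12 alternatives, and the change after T/5z was -0.51 at the weakest. Pla2g15, the lysosomal phospholipase, fell by 1.38 with T/5z and by 1.02 with T/S/Z on the log2 scale.

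Among the receptors, Ptgir, which binds prostacyclin, lay between 0.27 and 0.42 with DMSO, between 2.41 and 2.61 with T/5z and between 2.65 and 2.78 with T/S/Z. It read 1.62 to 1.87 with T/5z/N and 1.87 to 2.31 with T/S/Z/N. Ptgir reached the minimum for testing only through the stimulated libraries, so it had to differ from DMSO, and its levels are given as a description, although the counts above include it. Ptger2, the receptor EP2 for prostaglandin E2, moved the other way to Ptger4 with T/5z, with log2 changes of -1.31 (SE 0.10, limma adjusted p = 3.68e-05) with T/5z and -0.75 (SE 0.14, limma adjusted p = 0.00165) with T/S/Z, and of 1.01 (SE 0.08, limma adjusted p = 5.81e-05) with Nec-1s after T/S/Z. These calls of Ptger2 were kept under 10 (T/5z), 8 (T/S/Z) and 10 (Nec-1s after T/S/Z) of 11 alternatives. At the weakest, the log2 change was -0.55 with T/5z and 0.49 with Nec-1s after T/S/Z. Cysltr1, a receptor for cysteinyl leukotrienes, lay between 2.79 and 3.17 with DMSO and between 2.13 and 2.49 with T/S/Z, a log2 change of -0.62 (SE 0.11, limma adjusted p = 0.00131). That call was kept under only 5 of 11 alternatives, and the change was -0.38 with 5 added before the log, -0.44 with quantile normalization and -0.51 without replicate 1. With T/5z Cysltr1 moved the other way and lay between 3.32 and 3.57, above all DMSO libraries, although this rise did not pass. Set against T/5z, Cysltr1 was lower with T/S/Z, a call kept under 11 of 11 alternatives. Over these its log2 change lay between -1.16 and -0.70, with limma adjusted p up to 0.0255. Abcc1, an exporter of leukotriene C4, rose by 1.56 with T/5z and by 1.73 with T/S/Z on the log2 scale. The reductases Ptgr2 and Cbr1, which act on prostaglandins, fell by 0.79 and 0.76 with T/5z and by 0.73 and 0.77 with T/S/Z.

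In astrocytes 28 of the 54 symbols were listed and 27 tested, of which 2 rose and 3 fell with T/S/Z (18.5%, median log2 change -0.23, against 15.4% and -0.11 of all tested genes). Slco2a1, a prostaglandin transporter, read 1.63, 1.76 and 1.80 with DMSO, 4.52, 4.28 and 4.40 with T/S/Z and 3.13, 3.13 and 3.10 with T/S/Z/N. The groups did not overlap. Its log2 change was 2.67 with T/S/Z (SE 0.11, limma adjusted p = 4.95e-06) and -1.28 with Nec-1s against T/S/Z alone (SE 0.09, limma adjusted p = 0.000643). Each call was kept under 9 of 10 alternatives, with limma adjusted p up to 0.0547 and 0.196. Ptgds, the lipocalin-type prostaglandin D synthase, read 6.13, 5.56 and 5.72 with DMSO, 4.51, 4.58 and 4.16 with T/S/Z and 5.57, 5.90 and 5.89 with T/S/Z/N. T/S/Z lay below the other groups, with log2 changes of -1.39 (SE 0.13, limma adjusted p = 0.000238) against DMSO and 1.37 (SE 0.13, limma adjusted p = 0.0018) with Nec-1s against T/S/Z. Each Ptgds call was kept under 10 of 11 alternatives, with limma adjusted p up to 0.0995 and 0.256. Mgll, a lipase that also yields arachidonic acid in brain, fell by 0.71 with T/S/Z on the log2 scale, and Ptges2, another prostaglandin E synthase, rose by 0.65, calls kept under 9 and 8 of 11 alternatives. Ptgdr, a prostaglandin D2 receptor, lay between 1.04 and 1.28 with DMSO, between 0.02 and 0.04 with T/S/Z and between 0.08 and 0.18 with T/S/Z/N. It entered the tests only through the DMSO and Nec-1s libraries and so had to differ, and the counts above include it. The fibroblast and microglial marker sums given above moved in the same direction as Ptgds in these libraries, and their part was not tested.

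**Figure D5:**
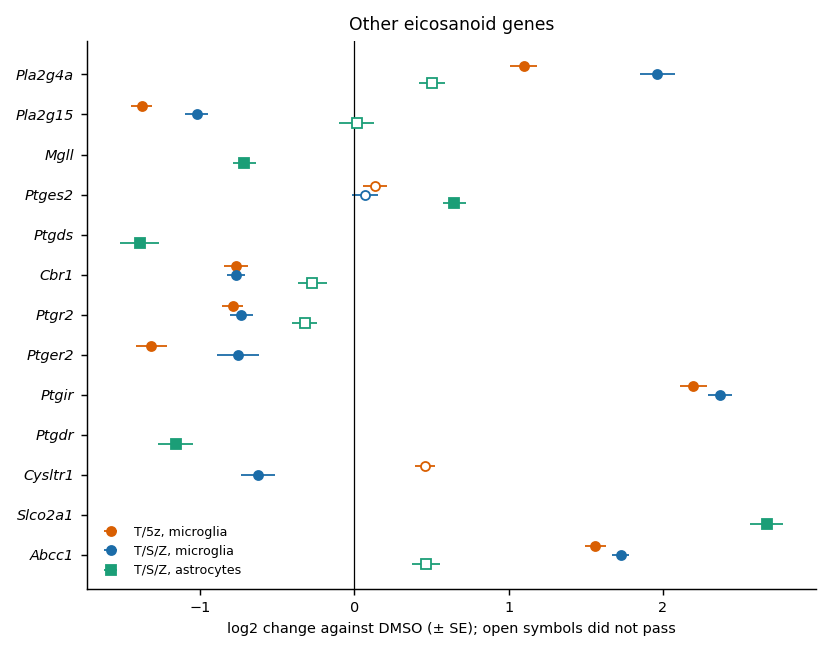
Log2 changes against DMSO with their SE for the other pathway genes that passed with T/5z or T/S/Z, at most 8 per comparison. Filled symbols passed, open symbols were tested and did not pass, and a missing symbol means that the gene was not tested. Ptgir and Ptgdr entered the tests only through the groups in which they were high, so their symbols are a description. Slco2a1 lies at 2.67 in astrocytes and Pla2g4a at 1.96 in microglia with T/S/Z.

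Over the 24 microglial libraries, the genes whose levels followed Ptges most closely were Ifi205 (Pearson r = 0.996), Nfkbia (0.996) and Tank (0.994). For Ptgs2 they were Phlda1 (0.981), Tubb6 (0.974) and Coq10b (0.969). For Hpgd they were Mertk (0.994), Tcp11l2 (0.993) and Cables1 (0.992), and for Ptger4 AW112010 (0.938), Gm43302 (0.938) and Ptp4a3 (0.936). These correlations describe profiles over 6 treatments, share the libraries and their scaling, and are given without a test.

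Several of the genes share their locus with another annotated gene in build GRCm38. Hpgd (chr8:56294585-56321043, plus strand) contains Gm45540 on the same strand. Ptgs1 (chr2:36230426-36252272), Hpgds (chr6:65117293-65144908), Alox5ap (chr5:149264767-149288153) and Ltc4s (chr11:50236469-50238532) overlap genes on the opposite strand. Whether the reads were counted by strand is not given in the sources used here, so reads of such neighbours may be included. In the microglial annotation, Ptges (chr2:30889471-30903297), Ptgs2 (chr1:150100031-150108227), Alox5 (chr6:116410077-116461178) and Ptger4 (chr15:5233399-5244187) overlapped no other gene of GENCODE M21.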

How the data were processed

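Per the labels, mouse microglia (24 libraries, 6 treatments) and astrocytes (12 libraries, 4 treatments) were sequenced at different providers, the astrocytes with a strand-specific protocol. With OmicSoft Array Studio the authors turned the reads into FPKM, brought the 75th percentile of the libraries together, and deposited log2(FPKM + 1). In the microglial table the replicate means of each gene had also been made equal. This step is not given in the sources used here, and it left negative values in replicates 1 to 3. The deposited annotation gave coordinates of GRCm38.

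The 9 genes, the marker lists and the pathway list were chosen with earlier results of these data known. Named from the pathway list were the genes that passed against DMSO, at most 8 per comparison by size. The 3 genes most correlated with Ptges, Ptgs2, Hpgd and Ptger4 were named by Pearson r. Genes with a log2 value of at least 1 in at least 4 microglial or 3 astrocyte libraries were tested, 10524 of 15385 and 13842 of 14551. The 13 comparisons were fitted with limma 3.58.1 in R 4.3.3 (lmFit, eBayes with trend), 2-sided, on the compared groups, with a block for replicate number, as the study's own test was paired. p-values were Benjamini-Hochberg adjusted over all tested genes. Changes on the log2(FPKM + 1) scale understate those of low genes. Alternatives were another pseudocount (5), other filters, scalings and variances, a fold minimum of 2, no block, and leaving out each replicate. The script was tested on simulated data. Low values were near whole multiples of the worth of 1 read for only 57.3 to 80.9% of genes, so no count test was made. Values after ± are SDs.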

Additional observations from a re-analysis of the deposited data

Results flagged for a closer look

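Among 54 groups of 4 microglial libraries, 1 held a library that stood apart, replicate 4 of DMSO for Alox5ap at 6.96 on the log2 scale against 6.79 to 6.82 in the others. Chance gives about 1 in 20 such groups. In microglia the Nec-1s effect differed between the 2 stimuli for Hpgd (interaction 0.74, limma adjusted p = 1.2e-05). For Ptgs2 the interaction was 1.56 (limma adjusted p = 0.0456), a call kept under only 5 of 12 alternatives and lost without any 1 of the 4 replicates, with no filter, with quantile normalization and without moderated variance (limma adjusted p up to 0.154). With Nec-1s after T/S/Z every microglial replicate had less Ptges (log2 change -1.02) and every astrocyte replicate had more (0.85). For Hpgd the same comparison gave -0.28 in microglia and 0.51 in astrocytes, again with every replicate of a cell type on its own side. Neither difference between the cell types was tested, since the tables were normalized separately.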

How the results depend on the processing

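Values here are numbers of the tested genes that passed. A fold minimum of 2 left 3 instead of 5 in T/S/Z against DMSO, 3 instead of 6 in T/5z/N against DMSO and 1 instead of 2 in both T/S/Z against T/5z and the interaction in microglia, and 2 instead of 5 in T/S/Z against DMSO and 0 instead of 2 in T/S/Z/N against T/S/Z in astrocytes. Without moderated variance, 0 passed in T/S/Z against T/5z and 1 in the interaction, and 0 in each of the 3 astrocyte comparisons that had calls. In the interaction 1 passed with no filter, 1 with quantile normalization, and 1 to 1 without any replicate. In astrocytes, 5 added before the log or a mean log2 of at least 3 left 2 in T/S/Z against DMSO and 1 in T/S/Z/N against T/S/Z. Leaving out a replicate gave 3 to 5 and 1 to 2 there. Quantile normalization left 1 in T/S/Z/N against T/S/Z.

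Without the replicate block, 1 instead of 2 passed in T/S/Z/N against T/S/Z in astrocytes, since Alox5ap had a limma adjusted p of 0.0525, and no other named gene's call changed. Deviations of astrocyte libraries with the same number had a median correlation of 0.04 (-0.14 to 0.41), and 7 of 12 libraries correlated best with their own number, so the libraries were not shown to be paired beyond the number. In microglia the equal replicate means preclude the check.

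Signs turned only for changes that did not pass. With quantile normalization Ltc4s in T/5z/N against DMSO became 0.010 and Ptgs1 in T/S/Z against T/5z 0.038. With a replicate left out, the log2 change of Ptger4 ranged from -0.097 to 0.016 in Nec-1s against DMSO, from -0.25 to 0.15 in T/S/Z/N against T/S/Z and from -0.34 to 0.0090 in the interaction, Ptgs1 from -0.043 to 0.13 in T/5z/N against T/5z, while for T/S/Z against T/5z it ranged from -0.13 to 0.027, Ltc4s from -0.094 to 0.037 in T/5z/N and from -0.081 to 0.16 in T/S/Z/N against DMSO, Ptgs2 from -0.020 to 0.38 in T/S/Z/N against DMSO, and astrocyte Hpgd from -0.095 to 0.23 in Nec-1s against DMSO. The cause of these moves was not tested. Of the other single-gene values, 1421 kept direction and call, 115 lost and 5 gained the call. The unknown depth of 18 microglial libraries limits what can be said of Alox5.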
